A study of Mus musculus with 6 samples.

Results

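A hairpin RNA against CSB was compared with a control hairpin in the primary visual cortex (V1) of the mouse, across all expressed genes. Of the 6 libraries of the study, 4 enter the comparison: 2 from V1 injected with an adeno-associated virus (AAV) carrying shCSB and 2 from V1 injected with AAV carrying shControl. All 4 are total RNA of female C57BL mice aged 9 weeks, and each group is 2 libraries. The series' text gives 2 mice per genotype, but the labels do not say which mouse a library comes from, so the spread between libraries may be technical. AAV is a vector that brings hairpin genes into brain cells. The promoter of the hairpins and the cells that took up the vector are not given in the sources used here, the labels name no sorting of cells, and both groups received a virus, so no uninjected cortex enters. Values are FPKM, fragments scaled to the length of the gene and to the size of the library, and 15435 of 54429 genes reached an FPKM of 0.5 in at least 2 of the 4 libraries.

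CSB, the product of Ercc6, is an ATPase that binds RNA polymerase II stalled at damage on the transcribed strand and calls the factors of transcription-coupled repair. People who lack CSB have Cockayne syndrome, in which growth fails and the brain loses myelin and becomes inflamed. Necdin, the product of the imprinted gene Ndn, restrains growth in neurons and is the gene that the series' title links to the syndrome as a hyperactivated marker.

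The gene that the hairpin targets did not separate the groups. Ercc6 (chr14:32513521-32580990, GRCm38) had an FPKM of 1.29 and 1.61 in the libraries labelled shCSB, from 272 and 369 reads, against 1.46 and 1.22 in shControl, from 305 and 235 reads. The groups overlapped. The log2 change on log2(FPKM + 1) was 0.07 ± 0.16 (SE, n = 2 and 2), with a 95% interval of -0.33 to 0.46. The values therefore do not show the loss that the label names. At so low a level this scale understates fold changes, so the interval does not exclude a partial loss. Ndn (chr7:62346569-62350262) had 47.9 and 38.1 FPKM in the libraries labelled shCSB, against 56.1 and 49.8 FPKM in shControl. Its values did not overlap and lay lower with shCSB by a log2 change of -0.30 ± 0.16, which did not pass the test (limma, adjusted p = 0.877) and was -0.46 to -0.14 with any 1 library left out. Of the other genes of its imprinted cluster that were tested, Snrpn and Ube3a overlapped between the groups, and the noncoding Snhg14 had 0.964 and 1.42 FPKM in shCSB against 0.944 and 0.801 FPKM in shControl.

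The 4 libraries held 15731788 to 17365285 reads. The second shCSB library stood apart from the other 3 on the first principal component, at 28.8 against -2.08 in the first shCSB library and -12.8 and -13.9 in shControl, and the component took 43.7% of the variance. Over all genes, a description since genes do not replicate each other, Pearson's r was 0.980 for the pair of shCSB libraries and 0.986 for the pair of shControl libraries. The first shCSB library had r of 0.985 and 0.983 with the shControl libraries, above its r with the second shCSB library. The second shCSB library had r of 0.979 with each shControl library. Mitochondrially encoded genes took 4.95% and 7.65% of the reads in the shCSB libraries and 7.06% and 6.61% in shControl. Slc17a7, the vesicular glutamate transporter of cortical and hippocampal excitatory neurons, was at 357 and 294 FPKM in shCSB and 406 and 420 FPKM in shControl, which marks such neurons and not V1. Since an exact permutation test of 2 against 2 libraries cannot go below p = 0.333, single genes were tested with limma, which fits all 15435 genes at once.

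With that test 2 of 15435 genes passed an adjusted p of 0.05, or 0.013%, and both were microRNA loci that fell. At an unadjusted p under 0.05 there were 458 higher (2.97%) and 424 lower genes (2.75%), together 5.71%, and in 2782 genes (18%) both shCSB values lay above both shControl values, while in 2858 (18.5%) both lay below. On reads scaled to each library total in place of the deposited FPKM scale, these last counts were 4193 (27.2%) above and 1604 (10.4%) below. This is because the library sizes behind the FPKM values are not the read totals. They lie under the totals in both shControl libraries and over them in both shCSB libraries. The groups are described below by such counts, set beside these shares, and by the values in each library. A gene could pass the filter through 1 group alone, so a count covers the members that passed and not the whole list. When only protein-coding genes of at least 200 bases were fitted, a choice made after seeing the data, 11 genes passed. Ifi27l2a, Lyz2, Bst2, C4b, Cxcl10, Ifitm3, Mgp and Serping1 rose in that fit, and Lsm5, Ier2 and Dusp1 fell. None of these 11 passed in the fit of all genes, where their adjusted p was 0.114 to 0.279.

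**Figure D1:**
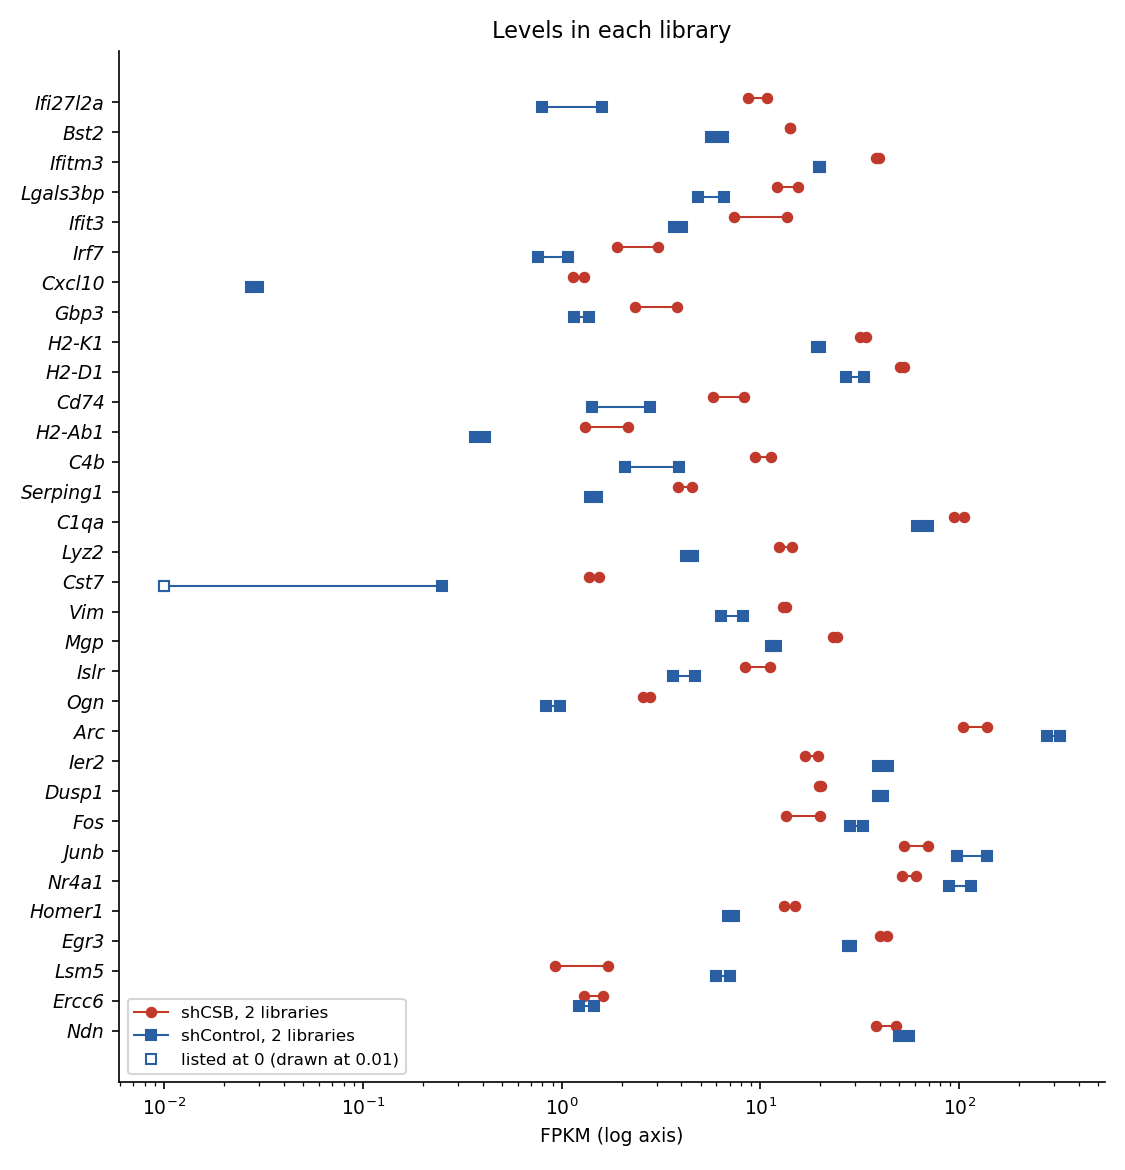
FPKM of 32 genes on a log axis, with the 2 shCSB libraries as circles and the 2 shControl libraries as squares below them, and an open square for the Cst7 value listed at 0. Ercc6 overlaps between the groups, while both shCSB values of the interferon, antigen presentation, complement and fibroblast genes shown lie to the right of shControl, and those of Arc, Ier2, Dusp1, Fos, Junb, Nr4a1 and Lsm5 to the left.

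Most genes induced by interferon that were tested lay higher in the libraries labelled shCSB. Interferon is the cytokine that cells release on sensing viral or misplaced nucleic acid. Its receptor drives transcription factors onto a promoter element, the interferon-stimulated response element, and in brain microglia, astrocytes and vessel cells all answer it. Of 31 listed genes 23 were tested, and in 20 both shCSB values lay above both shControl values and in 0 below. The median log2 change was 0.63, against -0.01 over all genes tested, and it was 0.53 to 0.72 with any 1 library left out.

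The promoters of 6 such genes were chosen because they hold the element. RefSeq gives Gbp3 a second start, and the window before it (chr3:142560206-142560355) has no match and is not printed. Capitals mark the element, searched as GAAA, any 2 bases and GAAA, on either strand, and the last base is the one before the RefSeq start, read 5′ to 3′ on the strand of the gene (GRCm38.p6). Cxcl10 encodes a chemokine that draws T cells (chr5:92348890-92349139, minus strand), Ifit1 (chr19:34640739-34640888, plus) and Ifit3 (chr19:34583359-34583528, plus) proteins that bind viral RNA, Isg15 a ubiquitin-like modifier (chr4:156200819-156200968, minus), Bst2 tetherin, which holds budding virus at the membrane (chr8:71537473-71537622, minus), and Gbp3 a guanylate-binding protein (chr3:142559894-142560043, plus).
Cxcl10: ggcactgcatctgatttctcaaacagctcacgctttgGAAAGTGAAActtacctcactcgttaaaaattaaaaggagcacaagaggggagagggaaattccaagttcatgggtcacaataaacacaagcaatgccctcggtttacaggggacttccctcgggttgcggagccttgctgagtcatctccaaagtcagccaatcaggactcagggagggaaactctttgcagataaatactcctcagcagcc
Ifit1: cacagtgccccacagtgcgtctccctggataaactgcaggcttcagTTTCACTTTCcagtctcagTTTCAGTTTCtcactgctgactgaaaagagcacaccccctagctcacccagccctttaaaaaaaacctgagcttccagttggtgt
Ifit3: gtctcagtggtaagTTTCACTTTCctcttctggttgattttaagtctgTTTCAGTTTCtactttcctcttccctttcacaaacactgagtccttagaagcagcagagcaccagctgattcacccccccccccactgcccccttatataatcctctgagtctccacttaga
Isg15: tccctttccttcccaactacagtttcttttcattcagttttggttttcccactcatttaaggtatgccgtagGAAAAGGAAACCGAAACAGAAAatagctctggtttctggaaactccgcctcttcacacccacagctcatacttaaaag
Bst2: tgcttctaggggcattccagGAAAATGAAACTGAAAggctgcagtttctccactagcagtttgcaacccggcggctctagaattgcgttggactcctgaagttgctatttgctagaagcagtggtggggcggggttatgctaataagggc
Gbp3: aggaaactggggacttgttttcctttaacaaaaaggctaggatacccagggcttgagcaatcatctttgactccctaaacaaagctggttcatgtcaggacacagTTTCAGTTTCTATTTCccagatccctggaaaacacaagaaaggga
In the windows of 250 bases before and 50 after the start, overlapping matches counted once per gene, the motif was in 10 of the 17 tested interferon genes that have a window (58.8%), in 7 of 8 GTPases of the GBP and IRG families (87.5%) and in 4 of 15 class I presentation genes (26.7%). Over the 10730 tested genes with a window it was in 3.44%. A match describes the letters and does not show binding.

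Ifi27l2a (chr12:103442167-103443680), a short interferon-induced membrane protein gene, had the largest change among the interferon genes. It had 8.70 and 10.8 FPKM in shCSB, from 66 and 89 reads, against 0.796 and 1.59 FPKM in shControl, from 6 and 11 reads. Both shCSB values were several times either shControl value, and the log2 change on log2(FPKM + 1) was 2.31 ± 0.21. Bst2 had 14.13 and 14.001 FPKM in shCSB against 5.64 and 6.45 FPKM in shControl, with a log2 change of 1.098 ± 0.13. Ifitm3, which blocks the fusion of viruses in endosomes, had 38.0 and 39.5 FPKM in shCSB against 19.7 and 19.9 FPKM in shControl. For both genes the 2 libraries of a group lay close together and far from the other group.

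Lgals3bp, a secreted glycoprotein gene, had 12.1 and 15.5 FPKM in shCSB against 4.88 and 6.54 FPKM in shControl, a log2 change of 1.14 ± 0.18. Ifi27 was higher in abundance, with 41.5 and 44.4 FPKM in shCSB against 27.0 and 28.5 FPKM in shControl. The antiviral Ifit3 had 7.35 and 13.6 FPKM in shCSB against 3.66 and 4.03 FPKM in shControl, and Ifit1 had 1.24 and 3.11 FPKM against 0.717 and 0.504 FPKM. In these last 2 genes the second shCSB library was the high one and the first lay nearer to the controls. Ifit3 and its near-identical copy Ifit3b may share reads.

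Irf7, the factor that amplifies interferon production, had 1.91 and 3.04 FPKM in shCSB against 0.764 and 1.08 FPKM in shControl, and Irf9 had 2.95 and 3.07 FPKM against 1.43 and 1.75 FPKM. Stat2 and the RNA sensor Ifih1 overlapped between the groups, while Ddx58, which encodes the RNA sensor RIG-I, had 0.572 and 0.861 FPKM in shCSB against 0.322 and 0.285 FPKM in shControl. Usp18, which turns the receptor off, had 1.42 and 0.886 FPKM in shCSB against 0.330 and 0.432 FPKM in shControl. None of Irf7, Irf9, Stat2, Ifih1, Ddx58 and Usp18 passed the test, with adjusted p of 0.511 or more.

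The GBP and IRG GTPases, which attack membranes of intracellular parasites and answer interferon gamma most strongly, had both shCSB values above both shControl values in 7 of the 9 members tested of 18 listed, and in 0 below. Gbp3 had 2.34 and 3.79 FPKM in shCSB against 1.37 and 1.149 FPKM in shControl, and Gbp2 had 1.36 and 3.19 FPKM against 1.27 and 1.04 FPKM. The list rested largely on 1 library: its median log2 change was 0.38 with all 4, 0.58 without the first shCSB library and 0.14 without the second. Its summed level was 14.7 and 25.4 FPKM in shCSB and 10.9 and 12.7 FPKM in shControl.

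Chemokines differed gene by gene. Cxcl10 had 1.14 and 1.30 FPKM in shCSB, from 42 and 52 reads, against 0.0273 and 0.0297 FPKM in shControl, from 1 read in each library. Ccl5, which draws T cells and monocytes, had 1.08 and 1.05 FPKM in shCSB against 0.192 and 0.279 FPKM in shControl. Both were near absence in shControl and at about 1 FPKM in both shCSB libraries. Of the 12 chemokine genes tested of 22 listed, 4 lay above and 3 below, and those below were Ccl9 and the constitutive brain chemokines Cxcl14 and Cx3cl1. The median log2 change of the chemokine list was 0.00.

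**Figure D2:**
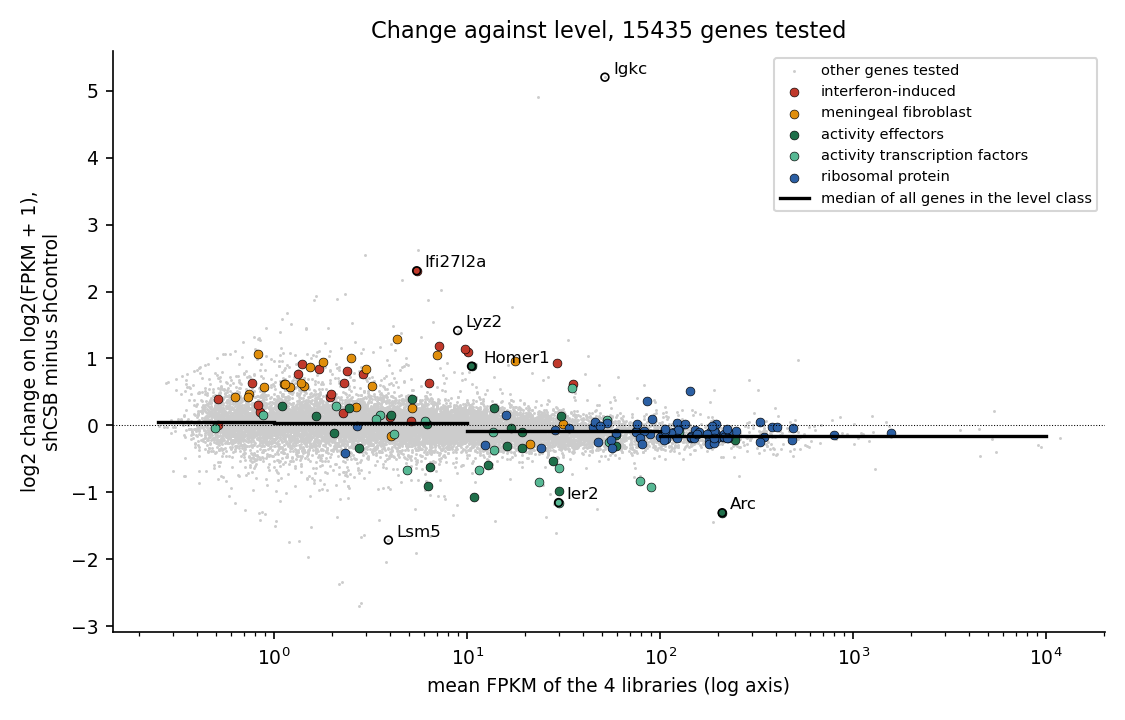
Log2 change, shCSB minus shControl, against the mean FPKM of the 4 libraries on a log axis, for 15435 genes, with black lines for the median of all genes in 4 level classes. Most interferon and meningeal fibroblast genes lie above the line of their class, ribosomal protein genes lie along theirs, and Arc and Ier2 lie far below.

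Most antigen presentation genes tested lay higher in shCSB in both classes. Class I molecules, heavy chains paired with the B2m chain, show peptides of cytosolic proteins to CD8+ T cells. In 11 of 17 class I genes tested both shCSB values lay above both shControl values, in 0 below, and the median log2 change was 0.41. The classical heavy chain H2-K1 had 31.7 and 33.9 FPKM in shCSB against 19.2 and 19.9 FPKM in shControl, a log2 change of 0.72 ± 0.12. H2-D1 had 50.2 and 52.6 FPKM in shCSB against 26.8 and 33.0 FPKM in shControl, and B2m had 212 and 239 FPKM against 141 and 171 FPKM. These heavy chains and B2m separated the groups, while the peptide-loading genes Tapbp and Tap2 overlapped and the transporter subunit Tap1 had 1.17 and 1.97 FPKM against 0.964 and 0.868 FPKM. H2-Q6 had the largest change of the list, with 3.45 and 4.96 FPKM in shCSB against 1.30 and 0.386 FPKM in shControl, but the H2-Q genes are near-identical and their reads may be split between them.

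Class II molecules, which show peptides of engulfed proteins to CD4+ T cells, are made in brain by activated microglia, border macrophages and B cells. In 6 of 7 class II genes tested of 12 listed both shCSB values lay above shControl and in 0 below, with a median log2 change of 0.67. Cd74, the invariant chain, had 8.27 and 5.78 FPKM in shCSB against 2.79 and 1.43 FPKM in shControl, a log2 change of 1.39 ± 0.25. H2-Ab1 had 2.16 and 1.30 FPKM in shCSB against 0.413 and 0.368 FPKM in shControl. Ctss, the protease that trims the invariant chain and is abundant in microglia, had 70.4 and 79.9 FPKM in shCSB against 41.8 and 48.4 FPKM in shControl. The exception was H2-DMa, at 10.3 and 11.5 FPKM in shCSB and 11.04 and 10.4 FPKM in shControl. In bulk tissue such as this, fewer or more cells of a type and less or more RNA per cell cannot be told apart.

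Complement genes, whose products tag synapses and debris for microglia, lay higher in 9 of 13 tested of 18 listed and lower in 0, with a median log2 change of 0.42. C4b (chr17:34728380-34743882), made in brain largely by glia, had 9.42 and 11.3 FPKM in shCSB against 3.89 and 2.09 FPKM in shControl, a log2 change of 1.54 ± 0.23. Serping1, the inhibitor of the first component, had 3.83 and 4.54 FPKM in shCSB against 1.51 and 1.38 FPKM in shControl, a log2 change of 1.08 ± 0.14. C1qa, a chain of that first component, had 94.3 and 105 FPKM in shCSB against 69.4 and 61.5 FPKM in shControl, and the complement receptor subunit Itgb2 had 2.66 and 3.296 FPKM against 1.53 and 1.62 FPKM. Reads of C4b may be shared with its copy C4a.

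Of the genes that mark disease-associated microglia, 9 of 17 tested lay higher and 0 lower, with a median log2 change of 0.15. The lysozyme gene Lyz2 (chr10:117277331-117282321) had 12.4 and 14.5 FPKM in shCSB against 4.57 and 4.22 FPKM in shControl, a log2 change of 1.42 ± 0.13, though its copy Lyz1 may share reads. Cst7, a cystatin that is almost silent in resting microglia, had 1.55 and 1.37 FPKM in shCSB against 0.249 FPKM and a listed 0 in shControl. The receptor Trem2 had 6.37 and 7.57 FPKM in shCSB against 5.79 and 5.04 FPKM in shControl, a far smaller difference, and Cd68, Axl and Ctsb overlapped. Among homeostatic microglial genes 7 of 17 lay higher and 1 lower. Siglech had 4.29 and 5.23 FPKM in shCSB against 3.19 and 2.69 FPKM in shControl, Tmem119 had 18.6 and 18.2 FPKM against 14.2 and 15.97 FPKM, and P2ry12 and Cx3cr1 overlapped. The median of the homeostatic list was 0.27 with all libraries, 0.41 without the first shCSB library and 0.064 without the second.

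Of 13 border macrophage markers 3 passed the filter, with 2 above and 0 below, and of 14 neutrophil and monocyte markers only S100a9 passed, at 0.585 and 1.40 FPKM in shCSB and 0.588 and 0.770 FPKM in shControl. Of 22 markers of T and cytotoxic lymphocytes 5 passed, with 1 above and 3 below. Of the lymphocyte markers the higher one is Ccl5, while Trac, the alpha constant chain of the T cell receptor, overlapped at 0.361 to 0.979 FPKM. Trbc2, a beta constant chain of that receptor, lay lower, with 26.6 and 27.5 FPKM in shCSB against 33.6 and 33.3 FPKM in shControl. So did Lck, at 0.313 and 0.422 FPKM in shCSB against 0.734 and 0.572 FPKM in shControl. Among the lower ones Thy1, which neurons of the cortex also express, had 326 and 241 FPKM in shCSB against 333 and 375 FPKM in shControl. Cd3e, Cd8a, Gzmb and Nkg7 of this list did not pass the filter. Cd3e had 0 and 2 reads in shCSB and 0 and 2 in shControl. Trbc2 had 301 and 339 reads in shCSB and 379 and 344 in shControl. Which cells the Trbc2 reads came from was not tested. Of 7 red blood cell genes tested 6 overlapped and 1 lay lower, with the globin gene Hbb-bs at 80.4 and 111 FPKM in shCSB and 85.6 and 136 FPKM in shControl, and the only choroid plexus gene that passed, Ttr, had 9.31 and 14.2 FPKM in shCSB and 3.68 and 20.2 FPKM in shControl.

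Of 11 B and plasma cell genes tested, of 19 listed, 5 had both shCSB values above both shControl values and 0 below. The light chain constant gene Igkc had 168 and 36.9 FPKM in shCSB, from 1461 and 349 reads, against 1.501 and 0.881 FPKM in shControl, from 13 and 7 reads. Igha, the constant region of IgA, had 129 and 416 reads in shCSB against 6 and 0 in shControl, so the first shCSB library was the higher one for Igkc and the second for Igha. Jchain, which joins secreted antibodies, had 5.72 and 2.21 FPKM in shCSB against 0.293 and 0.213 FPKM in shControl. Ighm, Ighg2c, Mzb1 and Derl3 overlapped between the groups. None of these passed the test, with an adjusted p of 0.142 for Igkc.

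Among 14 reactive astrocyte genes tested of 22 listed, 11 lay higher and 0 lower, with a median log2 change of 0.37. The filament gene Vim, made by reactive astrocytes and by vessel and meningeal cells, had 13.03 and 13.4 FPKM in shCSB against 8.17 and 6.33 FPKM in shControl, a log2 change of 0.80 ± 0.15. Gfap, the filament of astrocytes, had 76.3 and 56.3 FPKM in shCSB against 52.2 and 48.4 FPKM in shControl, and the small heat shock protein gene Hspb1 had 16.9 and 13.4 FPKM against 11.4 and 8.97 FPKM. Serpina3n, the serpin used most often as a mark of reactive astrocytes, overlapped at 8.43 and 8.90 FPKM in shCSB and 6.66 and 9.12 FPKM in shControl. The reactive list holds Cxcl10 and C4b, which are also in the chemokine and complement lists. Of 18 identity genes 1 lay higher and 2 lower, and the glutamate transporter genes Slc1a2 and Slc1a3 were high in the second shCSB library alone, Slc1a2 at 105 and 160 FPKM in shCSB and 115 and 111 FPKM in shControl.

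Most genes tested of meningeal and vascular fibroblasts lay higher in shCSB. These cells line the surface of the brain and secrete the collagens and proteoglycans of its coverings. In 20 of 23 genes tested of 25 listed both shCSB values lay above shControl and in 0 below, with a median log2 change of 0.59, and 0.43 to 0.75 with any 1 library left out. Mgp, an inhibitor of calcification, had 23.04 and 24.2 FPKM in shCSB against 11.3 and 11.9 FPKM in shControl, a log2 change of 0.97 ± 0.12. Islr had 11.1 and 8.37 FPKM in shCSB against 4.69 and 3.62 FPKM in shControl, and the small proteoglycan gene Ogn had 2.78 and 2.56 FPKM against 0.981 and 0.835 FPKM. The collagen gene Col1a1 had 1.64 and 1.65 FPKM in shCSB against 0.870 and 0.684 FPKM in shControl, and the transporter Slc47a1 had 1.55 and 1.38 FPKM against 0.145 and 0.218 FPKM. Aldh1a2, which makes retinoic acid, had 4.04 and 3.33 FPKM in shCSB against 1.55 and 1.12 FPKM in shControl. The summed level of the list was 153 and 116 FPKM in shCSB and 110 and 83.9 FPKM in shControl. The part of meningeal tissue in the immune results above was not tested.

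Of 20 endothelial genes 9 lay higher and 0 lower, with a median log2 change of 0.12 that was 0.22 without the first shCSB library and 0.060 without the second, and the tight junction gene Cldn5 was at 68.9 and 63.2 FPKM in shCSB and 64.0 and 68.2 FPKM in shControl. Vwf, the clotting factor of endothelium, had 1.56 and 1.93 FPKM in shCSB against 1.06 and 1.08 FPKM in shControl. Mural genes of pericytes and smooth muscle lay on both sides, 6 of 14 higher and 5 lower. These shares were 42.9% and 35.7%, against 18.5% and 18.1% at the same level.

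**Figure D3:**
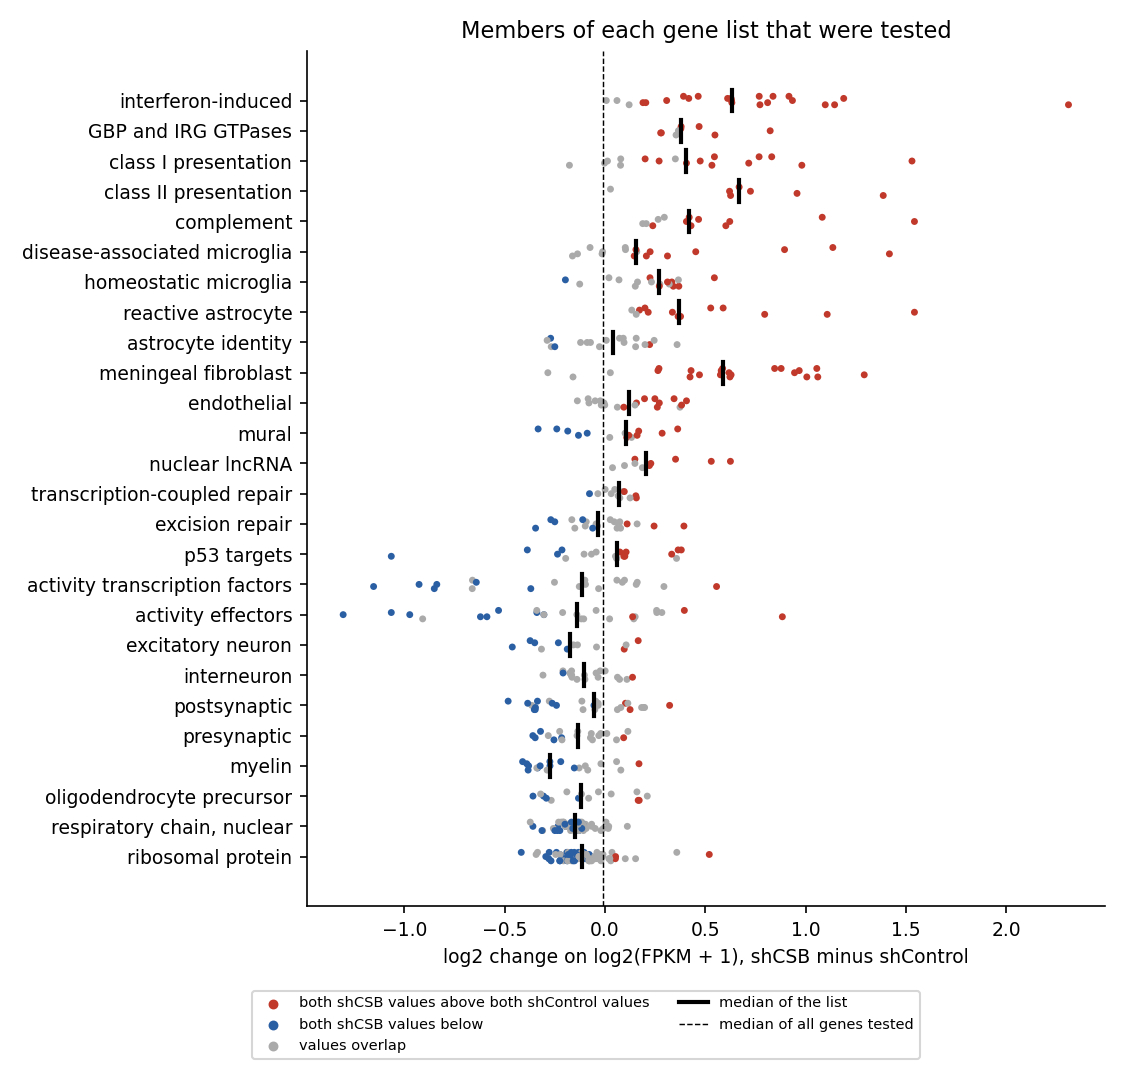
Log2 change, shCSB minus shControl, of every tested member of 26 gene lists, with a black bar at the median of each list and a dashed line at the median of all genes. Red points have both shCSB values above both shControl values, blue points both below, and the interferon, class II and meningeal fibroblast lists are nearly all red.

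Neurons switch on a set of genes within minutes to hours of activity. The set includes transcription factors such as Fos and Egr1 and effectors such as the synaptic protein Arc. Arc (chr15:74669083-74672570) had 138 and 104 FPKM in shCSB, from 6890 and 5668 reads, against 276 and 321 FPKM in shControl, from 13715 and 14636 reads. Both shCSB values were far below either control, and the log2 change was -1.30 ± 0.19 with a 95% interval of -1.75 to -0.86. Its adjusted p was 0.244 with limma on FPKM and 0.018 with limma-voom on the recovered reads. The latter was the lowest over the alternative limma fits, and the highest was 0.99994.

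Of 20 activity transcription factor genes, 6 lay lower and 1 higher, and the lower share of 30% compares with 22.3% of genes at the same level. The counts were the same on reads scaled to library totals. Ier2 had 19.4 and 16.8 FPKM in shCSB against 43.8 and 39.0 FPKM in shControl, a log2 change of -1.15 ± 0.14. Fos had 19.9 and 13.5 FPKM in shCSB against 32.8 and 28.1 FPKM in shControl, and Junb had 69.9 and 52.4 FPKM against 138 and 97.5 FPKM. The orphan nuclear receptor Nr4a1 had 60.3 and 51.4 FPKM in shCSB against 114 and 88.3 FPKM in shControl, and the clock gene Per1 had 29.7 and 17.4 FPKM against 37.8 and 34.4 FPKM. The family did not move as one. Egr3 was the higher one, with 40.1 and 43.3 FPKM in shCSB against 28.6 and 27.4 FPKM in shControl, while Egr1 and Fosb overlapped, Egr1 at 163 and 85.9 FPKM in shCSB and 123 and 130 FPKM in shControl.

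Of 25 activity effector genes 8 lay lower and 3 higher, and the lower share of 32% compares with 22.97% of genes at the same level. On reads scaled to library totals the counts were 6 lower and 5 higher. Dusp1, a phosphatase that shuts off stress and growth kinases, had 19.7 and 20.2 FPKM in shCSB against 41.3 and 39.0 FPKM in shControl, a log2 change of -0.97 ± 0.12. Btg2, which restrains cell growth and is also a target of p53, had 4.16 and 9.61 FPKM in shCSB against 17.3 and 12.1 FPKM in shControl, and the pseudokinase gene Trib1 had 5.51 and 4.22 FPKM against 7.43 and 8.52 FPKM. Homer1, a scaffold of metabotropic glutamate receptors, went the other way. It had 14.9 and 13.1 FPKM in shCSB against 7.37 and 6.83 FPKM in shControl, a log2 change of 0.88 ± 0.13, and the gene-level value joins its short activity-induced form with the long forms. The growth factor gene Bdnf overlapped at 5.44 and 3.26 FPKM in shCSB and 3.83 and 3.61 FPKM in shControl.

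The promoter of Dusp1 (chr17:26508473-26508622, minus strand) is shown for the cAMP response element, TGACGTCA, to which the activity-regulated factor CREB binds, with the match in capitals.
Dusp1: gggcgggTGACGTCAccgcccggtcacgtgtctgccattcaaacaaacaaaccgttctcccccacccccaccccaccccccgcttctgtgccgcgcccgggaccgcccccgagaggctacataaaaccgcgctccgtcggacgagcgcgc
This element was in 6 of 17 tested activity effector genes with a window (35.3%) and in 1 of 17 activity transcription factor genes (5.88%), against 3.54% of the 10730 tested genes. The serum response element, or CArG box, was searched as CC, 6 bases of A or T and GG, on either strand. It was in 1 of 17 genes of each list, against 1.63% of the tested genes.

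The activity result has values of the libraries beside it. The median log2 change of the transcription factor list was -0.11 with all libraries, -0.40 without the first shCSB library and 0.18 without the second, so its sign turned on 1 library. For the effectors it was -0.14 with all libraries, -0.38 without the first shCSB library and -0.028 without the second. Arc, Ier2 and Dusp1 did not overlap between the groups, so leaving out 1 library could not turn their sign. Their log2 change was then -1.50 to -1.11 for Arc, -1.25 to -1.05 for Ier2 and -1.01 to -0.93 for Dusp1. Genes of the neighbouring hippocampus and of deep cortical layers varied between libraries within both groups. The hippocampal Spink8 had 7.36 and 0.137 FPKM in shCSB and 11.8 and 6.36 FPKM in shControl, C1ql2 had 6.53 and 0.281 FPKM and 11.1 and 3.52 FPKM, and the deep-layer gene Crym had 28.0 and 10.2 FPKM and 33.6 and 12.9 FPKM. In each of these genes the second library of a group was the lower one. Of 10 hippocampal genes tested 1 lay higher and 1 lower, and the summed level of the list was 96.1 and 52.5 FPKM in shCSB and 123 and 63.6 FPKM in shControl. The part of the dissection in the activity result was not tested.

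**Figure D4:**
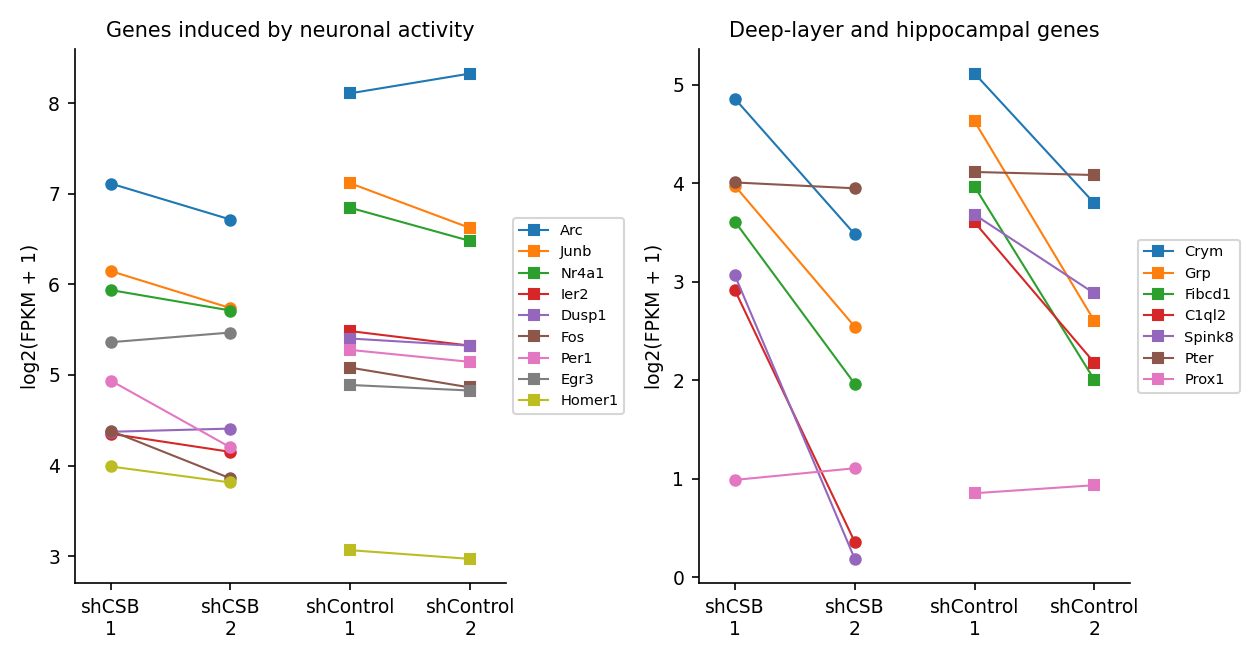
Log2(FPKM + 1) in each of the 4 libraries for 9 genes induced by activity (left panel) and 7 deep-layer or hippocampal genes (right panel), with the libraries of a group joined by a line. The activity genes other than Egr3 and Homer1 are lower in both shCSB libraries, while Crym, Grp, Fibcd1, C1ql2 and Spink8 differ between the 2 libraries within each group.

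Among 12 excitatory neuron genes 5 lay lower (41.7%, against 26.5% of genes at the same level) and 2 higher, a median log2 change of -0.17. The counts were 4 lower and 2 higher on reads scaled to library totals. Camk2a and Tbr1 overlapped between the groups. Emx1, the transcription factor of cortical excitatory neurons, had 18.6 and 18.2 FPKM in shCSB against 22.4 and 25.9 FPKM in shControl, and Scnn1a, which marks layer 4 cells of sensory cortex, had 1.61 and 1.102 FPKM against 2.59 and 2.51 FPKM. Of 14 upper-layer genes 2 lay higher and 2 lower, of 18 deep-layer genes 1 and 3, and of 14 genes of striatum or thalamus 2 and 1. Interneuron genes were nearly level, 1 of 19 higher and 1 lower, with Gad1 at 33.6 and 31.7 FPKM in shCSB and 29.8 and 35.7 FPKM in shControl.

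Of 26 postsynaptic genes 9 lay lower (34.6%, against 23.1% of genes at the same level) and 3 higher (7 and 5 on reads scaled to library totals), and the median log2 change of the list was -0.05, close to that of all genes. Shank1 had 73.5 and 80.6 FPKM in shCSB against 104 and 112 FPKM in shControl, a log2 change of -0.48 ± 0.13, and Shank3 had 28.9 and 32.2 FPKM against 37.9 and 42.6 FPKM. Dlg4, which encodes the main scaffold PSD-95, had 90.0 and 91.8 FPKM in shCSB against 119 and 113 FPKM in shControl. Of the receptor subunits Gria1 and Grin2b overlapped, and Grin1 had 60.8 and 60.9 FPKM in shCSB against 61.4 and 65.1 FPKM in shControl. Of 19 presynaptic genes 5 lay lower (26.3%, against 32.1% of genes at the same level) and 1 higher, with Vamp2, the vesicle SNARE, at 409 and 337 FPKM in shCSB against 482 and 464 FPKM in shControl. Among 10 neurotrophin genes tested 3 lay lower and 0 higher (30% and 0%, against 16.6% and 19.6% of genes at the same level).

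Myelin genes lay lower in 10 of 19 and higher in 1, with a median log2 change of -0.27. The median was -0.16 without the first shControl library, -0.14 without the first shCSB library and -0.39 without the second shCSB library. Over genes of the same level 25.1% lay lower, against 52.6% of this list. On reads scaled to library totals 8 myelin genes lay lower and 1 higher. Mag, an adhesion protein of the inner myelin layer, had 54.2 and 61.4 FPKM in shCSB against 72.6 and 73.6 FPKM in shControl, a log2 change of -0.34 ± 0.13. Fa2h, which makes the hydroxylated lipids of myelin, had 12.9 and 15.1 FPKM in shCSB against 19.2 and 17.9 FPKM in shControl. Mbp had 358 and 458 FPKM in shCSB against 522 and 540 FPKM in shControl. The first shCSB library was the lowest for each of these genes. Of 15 oligodendrocyte precursor genes 4 lay lower and 2 higher. No gene of either list passed the test.

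Of 12 factors of transcription-coupled repair 3 lay higher and 1 lower (25% and 8.33%, against 15.2% and 21.7% of genes at the same level). Ercc8, which encodes CSA, had 1.74 and 0.961 FPKM in shCSB and 1.06 and 1.30 FPKM in shControl, and Uvssa and Elof1 overlapped too. Of 21 core factors of nucleotide excision repair 3 lay higher and 5 lower (14.3% and 23.8%, against 19.5% and 17.2% at the same level). The endonuclease gene Ercc5 had 3.07 and 3.51 FPKM in shCSB against 2.44 and 2.09 FPKM in shControl, a log2 change of 0.39 ± 0.14, while the helicase gene Ercc2 had 4.70 and 4.59 FPKM against 5.55 and 6.86 FPKM, a log2 change of -0.35 ± 0.14. Targets of p53, the factor that answers DNA damage, lay higher in 7 of 19 and lower in 4. These shares were 36.8% and 21.1%, against 18.2% and 18.4% at the same level. Cdkn1a, its classical target, was at 14.2 and 8.65 FPKM in shCSB and 7.76 and 9.18 FPKM in shControl, high in the first shCSB library alone. Mdm2, which degrades p53, had 7.67 and 8.22 FPKM in shCSB against 7.65 and 7.06 FPKM in shControl, and the death gene Bbc3 had 7.36 and 7.28 FPKM against 9.51 and 7.85 FPKM.

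CSB also takes part in transcription by RNA polymerases I and II. Of 25 polymerase subunit and factor genes 6 lay higher and 4 lower (24% and 16%, against 14.4% and 22.7% of genes at the same level). The polymerase I factor gene Taf1a had 4.64 and 4.48 FPKM in shCSB against 3.44 and 2.67 FPKM in shControl. Of 16 genes of the ATF3 and ATF4 stress response 2 lay higher and 5 lower (12.5% and 31.3%, against 16.1% and 20.6% at the same level). Chac1 had 6.04 and 7.41 FPKM in shCSB against 10.02 and 8.47 FPKM in shControl. Of 19 chaperone genes 3 lay higher and 1 lower, and of 16 antioxidant and metallothionein genes 4 and 1, the higher ones including Hmox1, which degrades heme, at 4.67 and 4.17 FPKM in shCSB against 2.60 and 3.44 FPKM in shControl, and Nqo1, a quinone reductase, at 3.302 and 2.39 FPKM against 1.42 and 1.98 FPKM. Of 15 proliferation genes tested 2 lay higher and 4 lower (13.3% and 26.7%, against 21.3% and 14.1% at the same level). Noncoding RNAs held in the nucleus lay higher in 6 of 10 and lower in 0 (60% and 0%, against 13.6% and 23.8% at the same level). Neat1, the core of paraspeckles, was at 5.93 and 6.64 FPKM in shCSB against 4.07 and 4.01 FPKM in shControl. Malat1 was at 16.6 and 31.9 FPKM in shCSB and 19.4 and 20.9 FPKM in shControl.

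Abundant housekeeping genes followed the trend of their level. Among the 542 genes with a mean FPKM of 100 or more, both shCSB values lay below shControl in 36.9% and above in 3.32%, while among the 2363 genes with a mean under 1 the shares were 11.6% below and 22.6% above. Of 75 ribosomal protein genes 26 lay lower (34.7%), against 33.3% of genes at the same level, and of 56 nuclear-encoded respiratory chain genes 17 (30.4%), against 31.4%. On reads scaled to library totals the counts were 8 lower and 8 higher for the ribosomal list and 4 lower and 2 higher for the respiratory list. Of 13 genes encoded in mitochondrial DNA 4 lay lower and 0 higher, and the first shCSB library held the least of them, mt-Co1, a subunit of cytochrome oxidase, being at 8539 and 13740 FPKM in shCSB and 12741 and 11963 FPKM in shControl.

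The gene with the smallest p among protein-coding genes that were lower was Lsm5 (chr6:56701063-56704710), a subunit of the ring that binds U6 RNA and decapping substrates. It had 0.925 and 1.70 FPKM in shCSB, from 12 and 24 reads, against 5.97 and 7.02 FPKM in shControl, from 77 and 83 reads. The groups lay far apart, with a log2 change of -1.71 ± 0.20 and an adjusted p of 0.136. The 2 loci past the threshold, named after their values were seen, rest on a handful of reads. Mir7004 (chr2:168640696-168640759, in an intron of Atp9a) had 0 and 0 reads in shCSB against 6 and 5 in shControl, and Mir6929 (chr11:101419187-101419253, inside Ptges3l and outside its exons) had 1 and 1 against 7 and 7. At loci of 64 and 67 bases in a library of total RNA such reads need not come from a mature microRNA. The host Atp9a was at 91.5 and 80.0 FPKM in shCSB and 89.4 and 97.3 FPKM in shControl. With 1 library left out in turn, the adjusted p of Mir7004 was 0.0523 to 0.191 and that of Mir6929 was 0.0962 to 0.282.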

How the data were processed

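Total RNA of V1 was sequenced after a stranded library preparation, per the labels' protocols, which name 2 female mice per genotype. The submitters' processing notes name FastQC, HISAT2 2.0.4 and GRCm39. The counting program, strand setting and annotation are not given in the sources used here, so overlapping and antisense genes cannot be told apart. Positions in the deposited table equal those of GENCODE M21 on GRCm38 for 98.33% of shared identifiers, and coordinates are given on GRCm38. The authors deposited FPKM, 1 column per library. Multiplied by gene length, all values (100%) fell on whole steps of their library within 0.01, which gave the reads. The library size behind the FPKM was 0.970 and 0.949 times their total in the shControl libraries and 1.01 and 1.02 times in the shCSB libraries. No note describes this scaling, which differs between the groups and sets FPKM lower in shCSB, relative to shControl, than read totals would. Counting error of 3 reads at 1 kb is an FPKM of 0.169 to 0.201, so lower values carry little precision.

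Genes that reached 0.5 FPKM in 2 or more of the 4 libraries were tested on log2(FPKM + 1) with limma 3.58.1 in R 4.3.3 (mean-variance trend, two-sided, Benjamini-Hochberg adjustment over 15435 genes, threshold 0.05), after the script was tested on simulated data. Fold changes on this scale understate changes of low genes, and p-values measure the spread between these libraries. Intervals are 95%. Alternatives were a pseudocount of 0.1, other filters, other scalings, other spread estimates, all 6 libraries, a replicate block, each library left out, and limma-voom on the recovered reads, which called 7 genes. Genes were named as leading or lowest-p members of 45 lists, as genes past the threshold, or as the largest changes. Members and lists were chosen with earlier results of these data known. Promoters are from RefSeq (GRCm38.p6). Some genes are not reported here.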

Additional observations from a re-analysis of the deposited data

How the results depend on the processing

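With each library left out in turn, 0 to 5 genes passed the adjusted threshold and 578 to 1914 an unadjusted p under 0.05. The count at the adjusted threshold, 2 in all, was 0 without the filter, 59 with a replicate block, 0 with all 6 libraries, 1 after quantile normalization, 7 with limma-voom and 11 for protein-coding genes alone, the last chosen after seeing the data. It was 0 without the first shControl library or the first shCSB library and 5 without the second shControl library. The unadjusted count was 326 with all 6 libraries and 1914 without the first shCSB library. Over all genes, same-numbered libraries deviated from their group means together with r = 0.060. With 2 libraries per group the 2 pairs give the same value, which cannot decide whether the numbers pair the samples for part of the genes. The replicate block moved the unadjusted count to 1031.

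The log2 change of Ercc6 changed sign, to -0.0059 without the second shControl library and -0.029 without the second shCSB library. Its range was -0.029 to 0.16 with 1 library left out and -0.029 to 0.20 over all alternatives. Of the alternatives of all named genes, Ercc6 included, 1077 kept direction and side of the threshold and 2, both of Ercc6, reversed. In 39 the threshold was newly passed, and in 15, all of the microRNA loci, it no longer was. Over the lists 636 medians stayed within the spread and 38 moved. With a pseudocount of 0.1 the median log2 change was 0.97 for interferon genes, 0.75 for the GBP and IRG genes, 0.98 for class II, 0.85 for B and plasma cells and 1.02 for meningeal fibroblasts. With limma-voom it was 1.05, 0.92, 1.11, 0.90 and 1.23 for the same lists, 0.78 for class I, 0.84 for complement, 0.43 for border macrophages, 0.18 for transcription-coupled repair, 0.62 for reactive astrocytes, 0.21 for mural cells, -0.10 for excitatory neurons and 0.031 for the postsynaptic list; the median of all genes was 0.07 there, against -0.01. With quantile normalization it was -0.19 for T and cytotoxic lymphocytes, 0.38 for B and plasma cells and 0.088 for antioxidants. B and plasma cells gave 1.89 at a mean FPKM of at least 1 and 0.14 for protein-coding genes alone, where fewer members enter. The neutrophil list has no value at a mean FPKM of at least 1. With 1 library left out, the median was 0.064 to 0.41 for homeostatic microglia, -0.25 to -0.12 for T and cytotoxic lymphocytes, 0.35 to 0.65 for B and plasma cells, 0.011 to 0.079 for mural cells, -0.42 to 0.042 for red blood cells, -0.40 to 0.18 for activity transcription factors, -0.24 to -0.068 for excitatory neurons and -0.033 to 0.071 for antioxidants. The causes of these shifts were not tested.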

Other observations

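Immunoglobulin variable segments were read almost only in the libraries labelled shCSB. Reads on variable segments numbered 856 and 121 in shCSB against 10 and 1 in shControl. Igkv4-53, a kappa variable segment, took 505 and 63 of them in shCSB, or 59.0% and 52.1%, and is listed at 0 in both shControl libraries. The heavy chain constant genes differed between the shCSB libraries, with Ighg2b at 1616 and 2 reads in shCSB against 2 and 0 in shControl. Ighm had 850 and 1325 reads in shCSB against 865 and 1122 in shControl, and its groups overlapped.

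The shares of higher and lower genes differed with the length of the gene on the chromosome. Of 3267 protein-coding genes that span under 10 kb, both shCSB values lay above both shControl values in 11.7% and below in 25.9%. Of 1874 that span 100 kb or more, the shares were 22.7% above and 10.7% below. These classes were not matched on level, and the part of level in these shares was not tested.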
